A study of Mus musculus with 20 samples.

Results

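The cytochrome P450 genes of families 1 to 3 were taken as every probe other than a control whose gene name in the array files begins with Cyp1, Cyp2 or Cyp3 and a letter. This gave 43 of the 27962 gene names on the array, read by 66 of 41174 probes, and the brightest probe over all 20 arrays stood for each gene. Liver and white adipose tissue (WAT) were read in WT(HFD) and CD44KO(HFD) mice, with 5 arrays in each of the 4 groups, 1 array for each sample. All were male C57BL/6 mice of 7 months kept for 21 weeks on a high fat diet (HFD) with 35% fat, and the CD44KO mice lack CD44, the cell surface receptor for hyaluronan, in every cell. The comparison of genotypes asked how the loss of CD44 changed gene expression in the obese liver and in the obese fat, so both genotypes carried the diet and no lean group was read. RNA came from whole tissue, in which fewer cells of a type and less RNA per cell cannot be told apart. The values were log2 signals from which each array's 75th percentile had been subtracted, so that a value of 0 is the level of the 75th percentile and a difference of 1 is a 2-fold change.

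P450 enzymes are haem proteins, in families 1 to 3 mostly of the endoplasmic reticulum, that put an oxygen atom into drugs, steroids, fatty acids and retinoids. They take their electrons from the P450 reductase Por and from cytochrome b5. In liver they lie mainly in the hepatocytes nearest the central vein, and their genes answer to the receptors CAR, PXR and AhR, to HNF4A and to the sex-dependent release of growth hormone.

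The arrays were checked before the genes were compared. The Cd44 probe fell 18.5-fold in CD44KO(HFD) liver and 23.8-fold in CD44KO(HFD) WAT (limma, adjusted p = 6.65e-06 and 7.64e-06), without overlap. In liver, 57.4 to 61.9% of spots were well above background. In WAT, 63.2 to 69.5% were on 9 arrays, whereas the array of WT(HFD) WAT replicate 1 had 89.5%. The main WAT counts, the members' median, Cyp2c44 and the members' interaction median are therefore also given without it. The WAT values of other single genes and of markers are given only with it. The log2 of the summed level of 10 hepatocyte markers was 10.70 to 11.39 in liver and 5.24 to 6.28 in WAT, and that of 9 adipocyte markers was 4.04 to 6.91 in liver and 8.998 to 10.29 in WAT.

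The probes that carry the results are 60-base oligos, and in such a family neighbours can be close. The probes of Cyp2c54, the gene that changed most in liver, and of Cyp2c38, which did not pass the test, could be laid over each other for 57 bases, of which 40 matched. The capitals mark the 17 bases that differ, and the positions are those of the array files, on build mm7, chr19:39941403-39963984 and chr19:39298557-39329867, both on the minus strand. Each of these intervals is far longer than the probe.
Cyp2c54 probe: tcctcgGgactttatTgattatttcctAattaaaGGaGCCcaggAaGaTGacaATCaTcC
Cyp2c38 probe: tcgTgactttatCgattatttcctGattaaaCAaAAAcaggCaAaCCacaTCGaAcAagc
Cyp2a4 and Cyp2a5 had the longest shared run of bases among the 903 pairs of members. Their probes shared the run of 28 bases in capitals (chr7:23212199-23212258 and chr7:23212221-23212279, plus strand, mm7), and the Cyp2a4 probe also lists the accession of Cyp2a5, so their values may not be independent. In the other pairs the longest shared run had at most 18 bases.
Cyp2a4 probe: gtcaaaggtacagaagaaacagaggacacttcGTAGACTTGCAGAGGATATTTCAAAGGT
Cyp2a5 probe: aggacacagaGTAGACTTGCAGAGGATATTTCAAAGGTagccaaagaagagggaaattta

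Promoters are shown for the Cyp2c genes that rose together in liver and, beside them, for Cyp2c38. The RefSeq table of mouse promoters (GRCm38.p6) held a window for 37 of the 43 members, and Cyp2c54, Cyp2c44, Cyp2d13, Cyp2d22, Cyp2g1 and Cyp2u1 had no entry. The lines below give the 150 bases before the start of the gene, read 5′ to 3′ on its own strand, with CAAAGT in capitals, the core letters of the site that HNF4A binds.
Cyp2c29 (chr19:39286935-39287084, plus strand): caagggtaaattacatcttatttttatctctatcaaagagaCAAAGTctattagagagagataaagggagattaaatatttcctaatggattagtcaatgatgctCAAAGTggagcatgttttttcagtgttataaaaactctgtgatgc
Cyp2c37 (chr19:39992274-39992423, plus strand): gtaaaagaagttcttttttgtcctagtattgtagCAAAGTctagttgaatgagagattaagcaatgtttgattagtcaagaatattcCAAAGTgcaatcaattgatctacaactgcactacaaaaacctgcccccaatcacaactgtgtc
Cyp2c39 (chr19:39510672-39510821, plus strand, the downstream one of 2 starts): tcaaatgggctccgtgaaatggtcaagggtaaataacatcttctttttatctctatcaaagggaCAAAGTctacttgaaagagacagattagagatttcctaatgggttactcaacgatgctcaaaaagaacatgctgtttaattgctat
Cyp2c38 (chr19:39463076-39463225, minus strand): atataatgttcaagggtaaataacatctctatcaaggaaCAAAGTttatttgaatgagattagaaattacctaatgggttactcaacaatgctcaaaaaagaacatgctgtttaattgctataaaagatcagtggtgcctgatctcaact
The core letters stood 2 times in the Cyp2c29 and Cyp2c37 lines and 1 time in the Cyp2c39 and Cyp2c38 lines. On either strand of the 250 bases before the start, CAAAGT was found in 8 of the 9 Cyp2c members with a window, in 5 of the 6 members with a window that rose in liver, in 13 of 29 that did not pass the test, and in 12.6% of all 32851 windows. The longer form CAAAGTCCA was found in 0 of those 6, in 5 of the 29 and in 0.384% of all windows. Aligned end to end, the 4 lines were 49.1 to 64.2% identical in pairs, and Cyp2c38 was 62.8% identical to Cyp2c29. A match is a description of the letters and not a measured site.

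In the liver, P450 genes of families 1 to 3 were mostly higher in CD44KO(HFD) than in WT(HFD) mice, and those that rose were 5 Cyp2c genes, 2 Cyp2d genes and 1 gene each of Cyp2e, Cyp2g, Cyp2j and Cyp3a. Of the 43 genes, 42 were compared because 3 or more arrays of a genotype measured them well above background, and Cyp2c65 was not. By limma with Benjamini-Hochberg adjustment over all 24689 probes tested, 12 of the 42 passed an adjusted p of 0.05, which is 28.6%, against 13.6% of all probes. Among them 11 rose (26.2% of the members, against 7.85% of all probes) and 1, Cyp1b1, fell (2.38%, against 5.75%), although only 1 CD44KO(HFD) array measured it well above background. The difference was above 0 in 31 of the 42 (73.8%), and it was above 0 in 61.3% of all probes tested. Its median was 0.36 over the members and 0.08 over all probes. Both genotypes kept apart without overlap in 6 of the 42, of which 5 were higher and 1 was lower in CD44KO(HFD), while 7.5% and 4.22% of all probes did so, 11.7% in all. At an unadjusted p under 0.05, 18 members were higher and 3 were lower, against 20.4% and 11.8% of all probes, 32.2% in all.

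**Figure D1:**
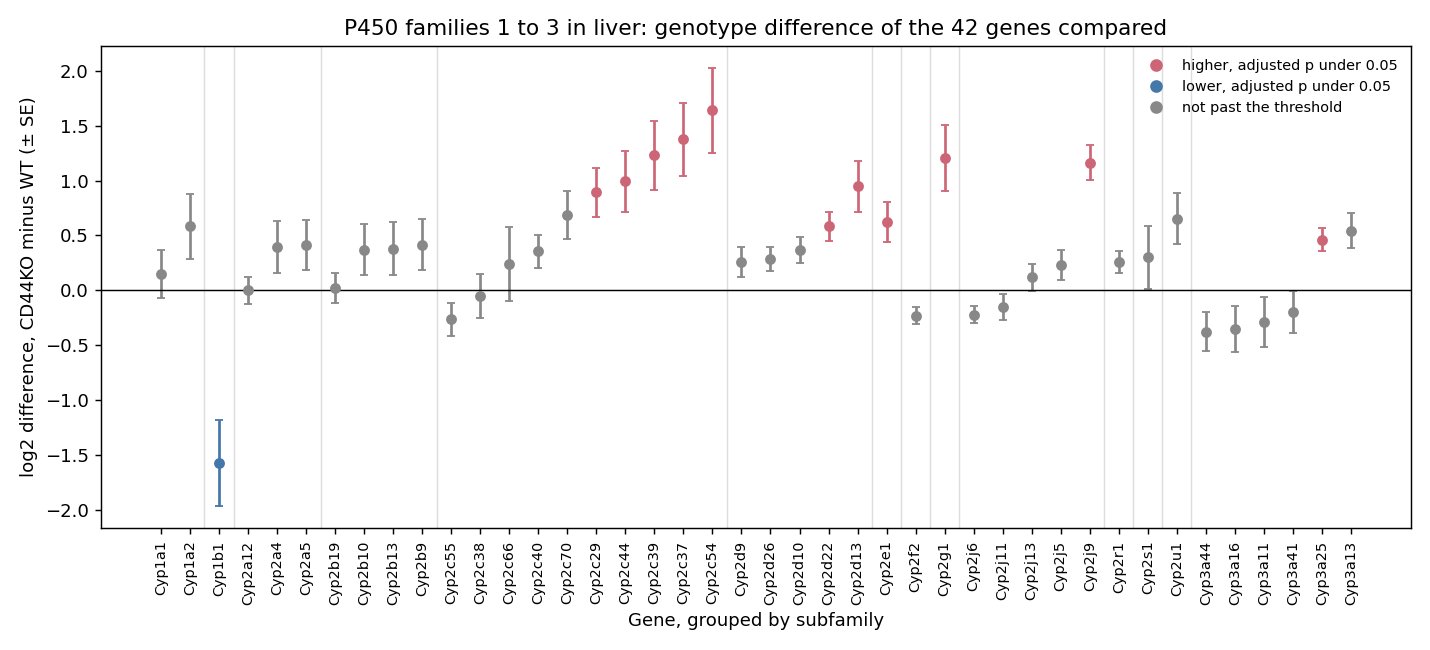
Difference between CD44KO(HFD) and WT(HFD) liver for each of the 42 genes compared, as log2 difference with its standard error, grouped by subfamily. Red marks the 11 genes that rose and blue the 1 that fell at an adjusted p of 0.05; the Cyp2c group runs from -0.27 to 1.64.

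Cyp2j9, an arachidonic acid hydroxylase, was the member with the smallest p. Its values in WT(HFD) liver were 0.59, 0.74, 0.60, 0.54 and 0.57, and in CD44KO(HFD) liver 2.02, 2.19, 1.24, 1.73 and 1.67 (replicates 1 to 5). Every CD44KO(HFD) liver lay above every WT(HFD) liver, and the WT(HFD) livers spanned a narrower range than the CD44KO(HFD) livers. The level was 2.24-fold higher, a log2 difference of 1.16 ± 0.16 (SE; limma, adjusted p = 0.00666). An exact two-sided permutation test over the arrays gave p = 0.00794, the smallest that 252 relabellings allow. Within the 3 liver slides it differed by 0.87, 1.32 and 1.42. The other members of its subfamily did not pass the test. The fatty acid hydroxylase Cyp2j5 differed by 0.23 (adjusted p = 0.275), Cyp2j13 by 0.12 (0.544), Cyp2j11 by -0.15 (0.417) and Cyp2j6 by -0.22 (0.0721).

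The Cyp2c genes held the largest rise. The subfamily makes epoxides and alcohols of arachidonic acid and oxidizes drugs, and 5 of its 10 compared members rose, with none falling and a median of 0.79. The WT(HFD) values of Cyp2c54 were -0.03, 0.84, 0.90, 1.70 and 0.59, and the CD44KO(HFD) values 2.40, 3.11, 1.27, 3.05 and 2.36. Only CD44KO(HFD) replicate 3 came below a WT(HFD) array, that of replicate 4. The level was 3.12-fold higher (log2 difference 1.64 ± 0.39 SE, adjusted p = 0.0258). Cyp2c37, whose probe also lists the accession of Cyp2c50, read 3.27, 3.95, 4.23, 4.81 and 4.05 in WT(HFD) and 5.45, 6.06, 4.51, 5.93 and 5.28 in CD44KO(HFD) livers. Again only CD44KO(HFD) replicate 3 came below WT(HFD) replicate 4, with a 2.6-fold rise (1.38 ± 0.33 SE, adjusted p = 0.0272), and its second probe gave 1.38 (adjusted p = 0.0351).

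The other Cyp2c genes that rose had the same single overlap. Cyp2c39, known as a retinoic acid hydroxylase, ranged from 2.24 to 3.60 in WT(HFD) and from 3.33 to 4.77 in CD44KO(HFD) livers, a difference of 1.23 ± 0.31 (adjusted p = 0.032). Cyp2c44, an arachidonic acid epoxygenase now named Cyp2c23, ranged from 4.02 to 5.32 and from 4.82 to 6.05, a difference of 0.99 ± 0.28 (adjusted p = 0.0421). Cyp2c29, a main phenobarbital-responsive gene of mouse liver, ranged from 5.35 to 6.25 and from 6.09 to 7.10, a difference of 0.89 ± 0.22 (adjusted p = 0.0297). In all 5 genes each CD44KO(HFD) liver was above the WT(HFD) mean, and the exact permutation p was 0.0159. These 5 genes, with Cyp2d13 and Cyp1b1, fell outside the rule for named genes, which asked for no overlap, except that Cyp1b1 was also named as the brightest of its subfamily, and they are named here after their values were seen.

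The remaining Cyp2c genes did not pass. Cyp2c70, which forms the muricholic acids of mouse bile, differed by 0.69 ± 0.22 (adjusted p = 0.0641). The female-predominant Cyp2c40 differed by 0.36 (adjusted p = 0.136), whereas its second probe passed with 0.52 (adjusted p = 0.0281). The probes of Cyp2c40 also list Cyp2c67 or Cyp2c68. The differences of Cyp2c66, Cyp2c38 and Cyp2c55 were 0.24, -0.05 and -0.27 (adjusted p = 0.659, 0.884 and 0.251).

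**Figure D2:**
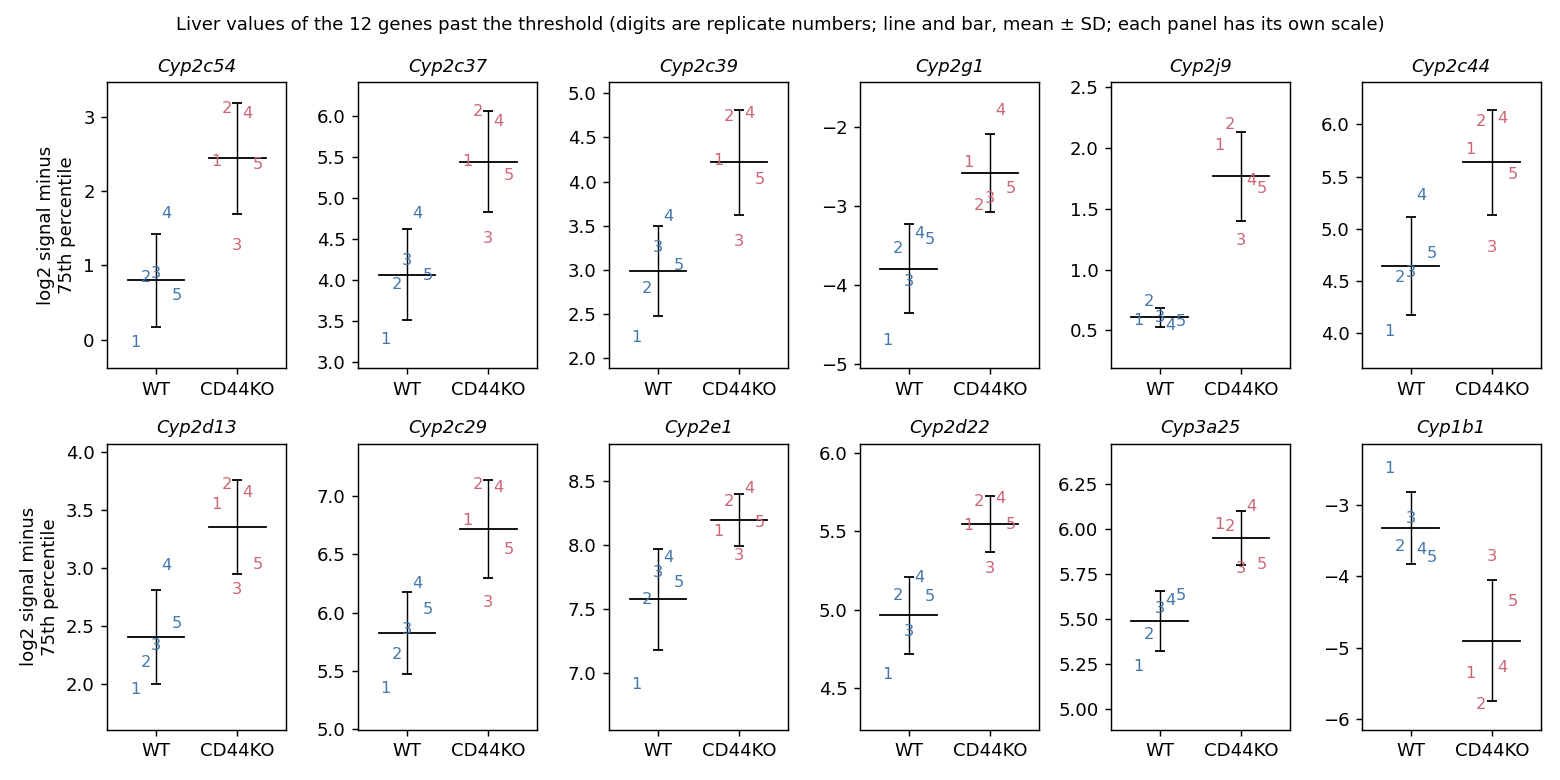
Liver values of the 12 genes that passed, as log2 signal minus the array's 75th percentile, one panel a gene with its own scale. Each digit is a sample by its replicate number, and the line and bar are the mean ± SD of 5 arrays. CD44KO replicate 3 lies closest to the WT arrays in 11 of the 12 panels and WT replicate 1 lies farthest from the CD44KO arrays in 11.

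Cyp2e1, which oxidizes ethanol, acetone and fatty acids, was without overlap. Its values were 6.90, 7.57, 7.78, 7.90 and 7.71 in WT(HFD) and 8.10, 8.34, 7.92, 8.44 and 8.18 in CD44KO(HFD) livers. The lowest CD44KO(HFD) value, of replicate 3, was just above the highest WT(HFD) value, of replicate 4. The rise was 1.54-fold (0.62 ± 0.18 SE, adjusted p = 0.0491).

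Among the Cyp2d genes, which oxidize basic drugs and steroids, 2 of 5 rose and the median difference was 0.37. Cyp2d22 read 4.58, 5.09, 4.86, 5.20 and 5.08 in WT(HFD) and 5.54, 5.69, 5.26, 5.71 and 5.54 in CD44KO(HFD) livers, without overlap. Its difference was 0.58 ± 0.13 (adjusted p = 0.0229). A second probe of Cyp2d22 gave 0.55 (adjusted p = 0.0127), and the remaining one gave 0.47 and did not pass (adjusted p = 0.24). Cyp2d13, which RefSeq lists as a pseudogene that is transcribed, differed by 0.95 ± 0.23 (adjusted p = 0.0283), with overlap. Cyp2d26 differed by 0.29 (adjusted p = 0.102), Cyp2d10 by 0.37 (0.0643) and the male-predominant Cyp2d9 by 0.26 (0.211). The probes of Cyp2d9 also list Cyp2d22.

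Cyp2g1, a P450 best known from the olfactory mucosa, was dim but measured on all 10 liver arrays. It read -4.70, -3.53, -3.96, -3.35 and -3.43 in WT(HFD) and -2.46, -3.00, -2.91, -1.79 and -2.78 in CD44KO(HFD) livers. The groups did not overlap, and the rise was 2.31-fold (1.21 ± 0.30 SE, adjusted p = 0.0293). No liver array measured its other probe well above background.

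The Cyp3a genes, the family that oxidizes most drugs and many steroids, split by gene. Cyp3a25 read 5.23, 5.41, 5.56, 5.60 and 5.63 in WT(HFD) and 6.03, 6.02, 5.78, 6.12 and 5.80 in CD44KO(HFD) livers. It was without overlap and rose by 0.46 ± 0.10 (adjusted p = 0.0222), and its second probe gave 0.60 (adjusted p = 0.00636). Cyp3a13 differed by 0.54 (adjusted p = 0.0511). The others were below 0 and did not pass: Cyp3a11 at -0.29 (adjusted p = 0.42), Cyp3a16 at -0.36 (0.271), Cyp3a41 at -0.20 (0.514) and Cyp3a44 at -0.38 (0.176). The probe of Cyp3a11 also lists the accessions of Cyp3a41 and Cyp3a44.

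Among the CD44KO(HFD) livers, replicates 2 and 4 were the lowest for these 4 Cyp3a genes and the highest for the Cyp2c genes that rose. These replicates held the 2 highest of the 5 CD44KO(HFD) values in 17 of the 42 members compared (40.5%), among them Cyp2c54, Cyp2c37, Cyp2c39, Cyp2c44 and Cyp2c29. They held the 2 lowest values in 5 members (11.9%), namely Cyp3a11, Cyp3a16, Cyp3a41, Cyp3a44 and Cyp2c66. Over all probes tested these arrays were the 2 highest in 21.5% and the 2 lowest in 15.2%. The slide that held them also held WT(HFD) replicates 2 and 4, and the part of the slide in this order was not tested. Cyp3a11 read 6.72, 6.44, 6.26, 6.08 and 6.61 in WT(HFD) and 6.51, 5.48, 6.52, 5.69 and 6.46 in CD44KO(HFD) livers.

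**Figure D3:**
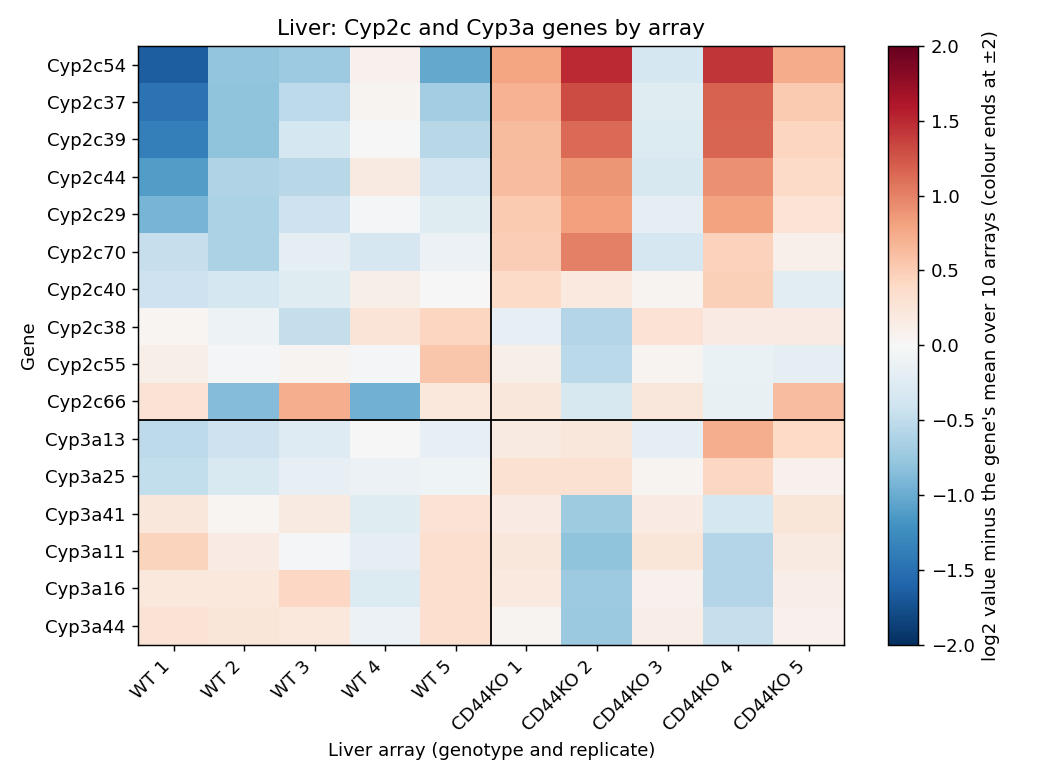
Liver values of the Cyp2c and Cyp3a genes compared, each as its difference from the gene's own mean over the 10 liver arrays, one column an array. Among the CD44KO arrays, the top 5 Cyp2c genes, those that rose, are highest on replicates 2 and 4, and the 4 Cyp3a genes at the bottom are lowest there. None of the other Cyp2c genes has this order, and Cyp2c66 is lowest on these replicates.

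Cyp1b1, which oxidizes oestrogens and polycyclic hydrocarbons and is known mostly from cells outside the liver parenchyma, was the member that fell. It read -2.50, -3.59, -3.19, -3.62 and -3.74 in WT(HFD) and -5.35, -5.79, -3.72, -5.28 and -4.35 in CD44KO(HFD) livers. It was well above background on all 5 WT(HFD) arrays and on 1 CD44KO(HFD) array, and the groups overlapped by CD44KO(HFD) replicate 3. The difference of -1.57 ± 0.39 (adjusted p = 0.0298) was thus taken mostly against signals near background, and its size is not exact. With the normexp background correction it was -0.13 (adjusted p = 0.803). In its family, Cyp1a2, which oxidizes caffeine and arylamines, differed by 0.58 (adjusted p = 0.2), and the dim Cyp1a1 by 0.15 (adjusted p = 0.682).

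Members of the other subfamilies did not pass in liver. Cyp2f2, known for oxidizing naphthalene, was a narrow case: its WT(HFD) values of 7.67 to 7.83 lay above all its CD44KO(HFD) values of 7.41 to 7.66, and the difference was -0.23 ± 0.08 (adjusted p = 0.0732). Of the 3 Cyp2a genes, the coumarin hydroxylase Cyp2a5 differed by 0.41 and Cyp2a4, a steroid hydroxylase, by 0.39 (adjusted p = 0.242 and 0.285), while Cyp2a12 did not pass either (0.997). The 4 Cyp2b genes, the classic targets of CAR, ranged from 0.02 to 0.42, with the female-predominant Cyp2b9 at 0.42 (adjusted p = 0.24) and Cyp2b10 at 0.37 (0.304). The probe of Cyp2b9 also lists Cyp2b10, and that of Cyp2b13 lists Cyp2b9 and Cyp2b10. The fatty acid hydroxylase Cyp2u1 differed by 0.65 (adjusted p = 0.0831, but past the threshold with the slide as a block and, at 0.0367, without CD44KO(HFD) replicate 3), the vitamin D hydroxylase Cyp2r1 by 0.26 (0.111) and Cyp2s1 by 0.30 (0.506).

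The number of liver genes that passed depended on single arrays. It was 3, 1, 6, 13 and 6 without WT(HFD) replicate 1, 2, 3, 4 or 5, and 1, 2, 16, 1 and 5 without CD44KO(HFD) replicate 1, 2, 3, 4 or 5. Cyp2j9 passed in all 21 alternatives tried, those included, and each of the other 11 failed in at least 7. All 12 kept their direction in every alternative and within each of the 3 liver slides. Among the 21, the other choices of probe and the series table gave the main liver values again, so they are not separate checks. With the slide as a block 14 members rose and 1 fell. Leaving out the dim-spot filter left 1 of the 12 past the threshold and the normexp correction left 1, Cyp2j9 in both.

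Marker lists of cell types in liver were read beside these results, where 7.85% of all probes rose and 5.75% fell. Of the 8 fibroblast and stellate markers 5 fell in CD44KO(HFD) liver, among them Col1a1 (-2.38) and Col3a1 (-1.60), and the log2 of their summed level ran from 6.66 to 7.29 in WT(HFD) and from 6.01 to 6.63 in CD44KO(HFD) mice. Of the 6 adipocyte markers compared in liver 1 fell, the lipid droplet gene Cidec (limma, -2.12, adjusted p = 0.0486). The summed level of the adipocyte list ran from 6.54 to 6.91 and from 4.04 to 6.36, without overlap. That level includes Cidec, whose fall in CD44KO(HFD) liver the paper reports with the genes of hepatic lipid storage. It is therefore not read as adipocyte content. Of the 9 macrophage markers compared 3 fell and 0 rose, with summed levels of 5.16 to 5.99 and 5.18 to 5.89. The list split in direction, with a difference below 0 in 6 and above 0 in 3, the largest 0.75. None of the 10 hepatocyte markers passed (limma), with 6 at an unadjusted p under 0.05 and all of those higher, Cps1 by 0.94 (adjusted p = 0.0612), and their summed level ran from 10.70 to 11.19 and from 11.06 to 11.39. The part of cell makeup in the P450 values was not tested.

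The genes that work with P450 in liver were read from lists of 17 redox and haem genes and 26 regulators, beside all probes, of which 7.85% rose and 5.75% fell with a median of 0.08. Of the 17, 4 rose and 0 fell, with a median difference of 0.17. They were Cpox (0.62, adjusted p = 0.0174), Fech (0.40, 0.0134) and Ppox (0.39, 0.0294), which make haem, and the haem oxygenase Hmox2 (0.27, 0.0287), which breaks it down. Por, the reductase itself, differed by 0.59 (adjusted p = 0.0726) and the first enzyme of haem synthesis, Alas1, by 0.35 (0.258). Of the 24 regulators compared, 5 rose and 0 fell, with a median of 0.26. Nr1i3, which encodes CAR, rose by 0.59 (adjusted p = 0.0477), the bile acid receptor Nr1h4 by 0.46 (0.022), Hlf by 0.48 (0.0177), Foxa3 by 0.33 (0.035) and Cebpa by 0.28 (0.0384). Nr1i2, which encodes PXR, Ahr, Ppara and Hnf4a differed by 0.14, 0.20, -0.04 and 0.27 and did not pass.

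Groups of P450 genes by what is known to govern them were counted as well, against the same 7.85% and 5.75% of all probes. Of the 9 female-predominant P450 genes 0 passed (limma; 1 had an unadjusted p under 0.05), with a median difference of 0.36, and of the 4 male-predominant ones 1 rose, Cyp7b1 of another family, with a median of 0.79. Of the 8 genes listed here as epoxygenases of arachidonic acid 5 rose, with a median of 0.94. They were Cyp2c29, Cyp2c39, Cyp2c44, Cyp2c54 and Cyp2j9, of which Cyp2c39 and Cyp2j9 are named above as hydroxylases. Of the 9 genes that CAR or PXR induces 3 rose, Cyp2c29, Cyp2c37 and Cyp2c54, with a median of 0.41. The epoxygenase list and the CAR and PXR list hold only members given above, so their counts repeat those results. Of the 5 AhR-inducible genes compared 0 rose and 2 fell, Cyp1b1 and the quinone reductase Nqo1 (-0.81, adjusted p = 0.0219), with a median of -0.19. Among 13 pericentral genes 3 rose and 1 fell. Those that rose were the members Cyp2e1, Cyp2c29 and Cyp2c37 given above. The ammonium transporter Rhbg fell (limma, -1.39, adjusted p = 0.0128). Among 10 periportal genes 0 passed by limma, and 4 had an unadjusted p under 0.05, 3 of them higher. Of the 23 P450 genes of other families compared 4 rose and 1 fell. The fatty acid hydroxylases Cyp4a14 and Cyp4a10 rose by 1.11 and 0.81 (adjusted p = 0.0334 and 0.0282).

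In WAT most of these genes were far lower than in liver. For the same probe, 41 of the 43 genes were higher in WT(HFD) liver than in WT(HFD) WAT, 34 without overlap and 30 by more than 4 log2 units. Among the 28 genes that all 10 WAT arrays measured well above background, the largest difference was 9.97, for Cyp2d10. For genes that only some WAT arrays measured, such as Cyp2a12, the size is not exact. Cyp2c38, Cyp2c55 and Cyp2g1 were well above background on no WAT array and were at least 37.0-fold, 28.1-fold and 4.40-fold higher in WT(HFD) liver, against the lowest signal that was well above background on each WAT array. Cyp1b1 and Cyp2s1, both best known outside the liver, were the 2 genes higher in WAT, 35.8-fold and 14.2-fold and without overlap. Cyp2j9 had nearly the same level in both tissues, 0.61 ± 0.08 in liver and 0.41 ± 0.23 in WAT (SD, n = 5), and its arrays overlapped. All these differences are relative to each array's 75th percentile. In WT(HFD) mice that percentile was a signal of 433 to 575 in liver and 1649 to 2708 in WAT. The size of the differences, and the direction of small ones such as that of Cyp2j9, thus depend on this scaling. No slide held both tissues, so tissue and slide cannot be told apart, and the differences between tissues are given with no test.

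**Figure D4:**
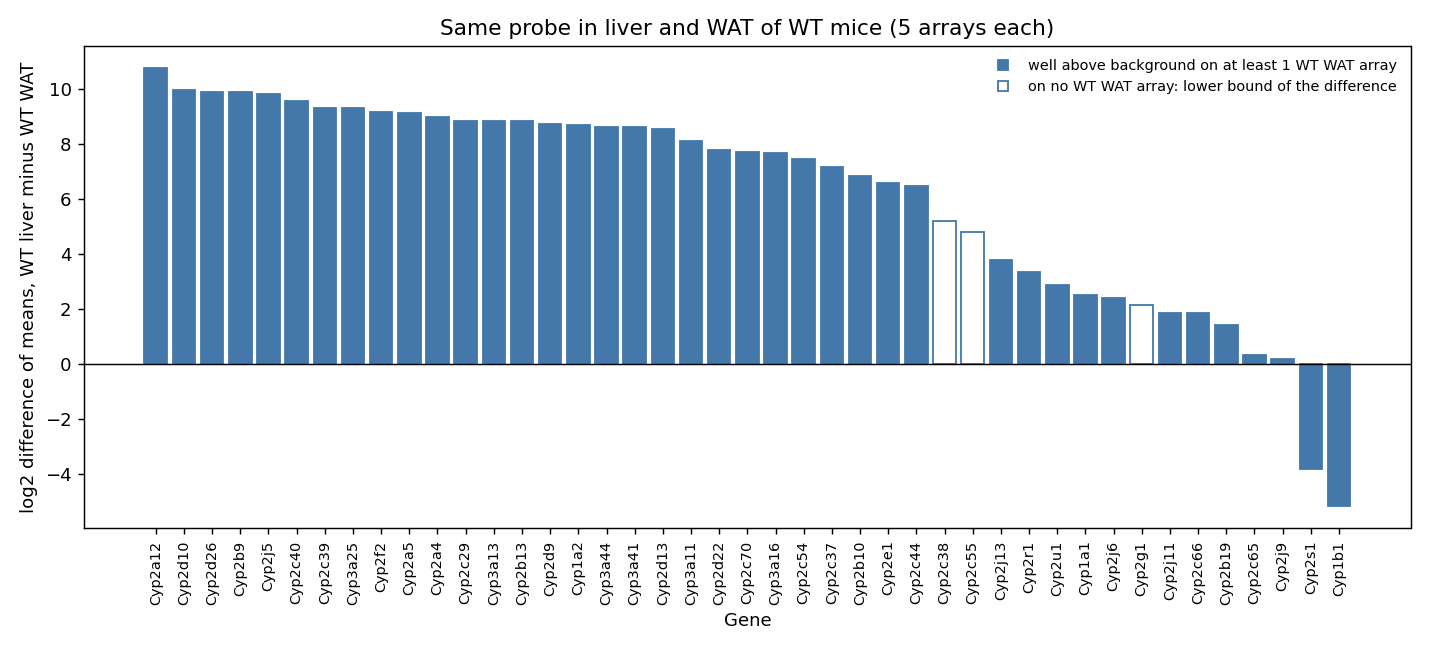
Mean of WT liver minus mean of WT WAT for the same probe of each of the 43 genes, as log2 difference over 5 arrays a tissue, in order of size. Values are relative to each array's 75th percentile, whose signal differed between the tissues. Open bars are lower bounds for the 3 genes that no WT WAT array measured, and bars of genes that only some measured are not exact; 41 bars lie above 0 and those of Cyp2s1 and Cyp1b1 lie below.

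No member passed the test between genotypes in WAT. Of the 38 genes compared there, 0 passed by limma with adjustment over 27653 probes, of which 0.0398% passed, 0.0108% higher and 0.0289% lower. At an unadjusted p under 0.05, 7 members were higher in CD44KO(HFD) WAT and 0 were lower, against 8.27% and 6.6% of all probes, 14.9% in all. Cyp1a1, Cyp2b10, Cyp2c38, Cyp2c55 and Cyp2g1 were not measured on enough arrays to be compared. The difference was above 0 in 25 of the 38, and in 44.7% of all probes, and its median was 0.25. Without WT(HFD) replicate 1 again 0 passed, 9 had an unadjusted p under 0.05 and the median was 0.56. With median scaling the median of all probes moved from -0.06 to 0.42 and that of the members to 0.73, and with quantile normalization they were 0.11 and 0.67, so the members' direction in WAT is to be read against that shift. It also rested on single arrays, since the members' median was -0.01 without WT(HFD) replicate 3, -0.03 without WT(HFD) replicate 5 and -0.04 without CD44KO(HFD) replicate 3.

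Cyp2c44 had the smallest p in WAT. It read -2.23, -1.61, -1.68, -1.08 and -2.58 in WT(HFD) and -0.21, -0.89, 0.04, -0.56 and -0.74 in CD44KO(HFD) WAT. The groups did not overlap, and the difference was 1.36 ± 0.30 (adjusted p = 0.165). Without WT(HFD) replicate 1 it was 1.27 (limma, adjusted p = 0.125). With all 20 arrays in one limma fit it passed (adjusted p = 0.0158). That fit takes 1 spread per probe for both tissues, whereas the median pooled SD over all probes tested was 0.20 in liver and 0.40 in WAT. In it 1819 WAT probes passed, in place of 11. Cyp2j6 was the other gene without overlap, with WT(HFD) values of -0.07, 0.48, 0.35, -0.16 and 0.30 and CD44KO(HFD) values of 0.83, 0.77, 0.65, 0.49 and 0.60. The lowest CD44KO(HFD) value, of replicate 4, was only just above the highest WT(HFD) value. Its difference was 0.49 ± 0.16 (adjusted p = 0.236). Genes without overlap made up 4.1% of all probes in this direction and 2.07% in the other, 6.18% in all. Within the 2 WAT slides that held both genotypes, Cyp2c44 differed by 0.84 and 1.996 and Cyp2j6 by 0.80 and 0.27.

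The 5 members with the highest probe signal in WT(HFD) WAT were Cyp1b1, Cyp2s1, Cyp2e1, Cyp2j9 and Cyp2j6. Cyp1b1 read 1.54, 1.89, 2.02, 1.87 and 1.86 in WT(HFD) and 1.39, 2.09, 2.05, 1.95 and 1.71 in CD44KO(HFD) WAT. The groups lay over each other, with a difference of 0.00 ± 0.17 (adjusted p = 0.994). Cyp2s1 differed by -0.09 ± 0.23 (adjusted p = 0.855). Cyp2e1 differed by 0.88 ± 0.29 (adjusted p = 0.231), with all 5 CD44KO(HFD) values above the WT(HFD) mean, and Cyp2j9 by 0.58 ± 0.21 (adjusted p = 0.261), again with 5 of 5 above it. With all 20 arrays in one limma fit, which takes 1 spread for both tissues, Cyp2e1, Cyp2j6 and Cyp2c70 passed beside Cyp2c44 (adjusted p = 0.0425, 0.0262 and 0.0421).

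The other members with the largest differences in WAT were genes that are high in liver, and their arrays were widely spread. Cyp2a12 read -3.17, -3.27, -7.51, -3.01 and -6.43 in WT(HFD) and -4.17, -4.46, -2.31, -3.30 and -3.43 in CD44KO(HFD) WAT, a difference of 1.14 ± 0.92 (adjusted p = 0.553). WT(HFD) replicates 3 and 5 lay far below the other 3 WT(HFD) arrays. Their slide also held WT(HFD) replicate 2 and CD44KO(HFD) replicate 3, and the part of the slide was not tested. Cyp2j5 differed by 1.24 ± 1.07 (adjusted p = 0.58), Cyp2b9 by 1.26 ± 0.47 (0.267), Cyp2c70 by 1.09 ± 0.35 (0.227), Cyp2d26 by 0.98 ± 0.75 (0.538) and Cyp3a16 by -1.004 ± 0.81 (0.555). Between the slides that held both genotypes, Cyp2j5 turned its direction (-1.09 and 3.91). So did Cyp2a12 (-0.85 and 3.43), Cyp2d26 (-0.51 and 3.06) and Cyp3a16 (-2.43 and 0.76). Cyp2b9 (0.54 and 2.21) and Cyp2c70 (0.78 and 2.35) did not. The other probe of Cyp2b9 was well above background on only 1 WT(HFD) and 2 CD44KO(HFD) WAT arrays and was not compared. Its mean was -5.39 in WT(HFD) and -5.98 in CD44KO(HFD) WAT, in the other direction. The median pooled SD of the members was 1.19 in WAT, against 0.40 over all probes tested there, and 0.36 in liver.

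This spread followed the same arrays in most of these genes. Of the 38 members compared, 23 had a pooled SD above 1, and in 20 of these WT(HFD) replicates 3 and 5 were the 2 lowest of the WT(HFD) arrays. In the 8 members with a pooled SD under 0.5, which were Cyp2j6, Cyp1b1, Cyp2j13, Cyp2r1, Cyp2j9, Cyp2s1, Cyp2e1 and Cyp2c44, this was so in 0. The SD came from these same arrays, and low values on 2 of them widen it. The contrast between the 23 and the 8 thus follows in part from the split. Of the 10 hepatocyte markers 6 were lowest on the same arrays. These 2 arrays were picked after the values were seen, and the same count was not made over all WAT probes. Whether this order is particular to these genes is therefore not shown. The WAT values of Apoa1, a plasma apolipoprotein of liver, were -1.08, -0.08, -4.10, -1.18 and -4.31 in WT(HFD) and -1.92, -2.73, -0.78, -0.93 and -1.08 in CD44KO(HFD) mice, and the part of liver RNA or of any other source in the P450 values of WAT was not tested. Markers of other cell types were read in WAT as well. The 5 endothelial markers had a summed log2 level of 3.14 to 4.09 in WT(HFD) and 4.37 to 5.22 in CD44KO(HFD) mice, the 9 adipocyte markers 8.998 to 9.78 and 9.51 to 10.29, the 10 macrophage markers 7.96 to 8.46 and 7.64 to 8.28, and the 5 mesothelial markers 1.15 to 3.44 and 0.03 to 1.74. The genotypes overlapped in these levels except for the endothelial markers. By limma 0 markers of each type passed. At an unadjusted p under 0.05, 3 endothelial and 3 adipocyte markers were higher, and 3 macrophage and 4 mesothelial markers were lower. Of all probes, 8.27% were higher and 6.6% lower at that p.

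**Figure D5:**
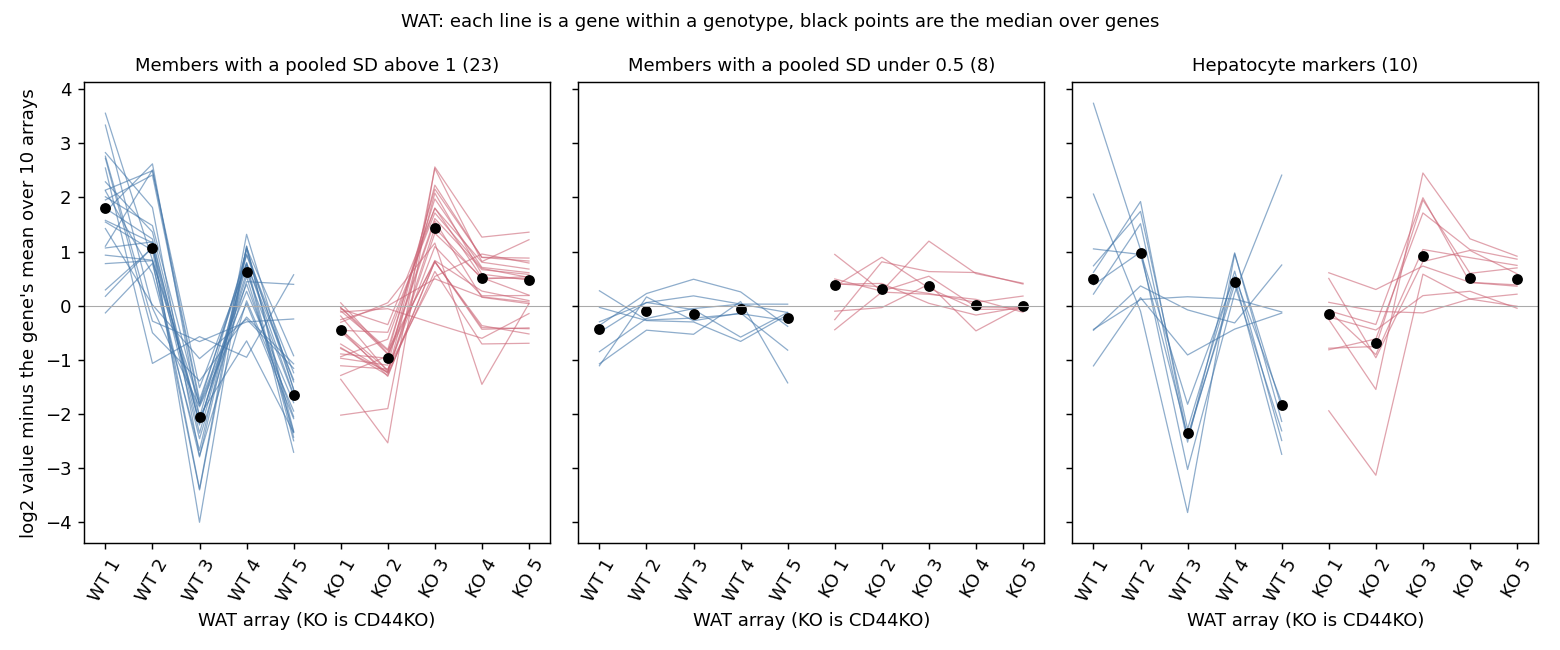
WAT values of the 23 members with a pooled SD above 1, the 8 with a pooled SD under 0.5 and the 10 hepatocyte markers, each as its difference from the gene's own mean over the 10 WAT arrays, one line a gene within a genotype and black points the median over genes. WT replicates 3 and 5 are the low points for most of the widely spread members and most hepatocyte markers, and not for the 8 others. The split by SD was made on these same arrays, and the order of the arrays was not counted over all WAT probes.

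The change between genotypes was also compared between the tissues, as an interaction of genotype and tissue in one limma fit of all 20 arrays. This fit, too, takes 1 spread per probe for both tissues. None of the 43 members passed (adjusted p, limma, over 28988 probes, of which 1.15% passed), and 6 had an unadjusted p under 0.05, against 15.8% of all probes. Without WT(HFD) WAT replicate 1 again 0 passed. The members' median then moved from -0.33 to 0.12, and that of all probes from -0.13 to -0.03. The nearest was Cyp2j6, at -0.22 in liver and 0.49 in WAT, a difference of 0.71 ± 0.17 (adjusted p = 0.0508). It passed with the normexp correction (adjusted p = 0.0411), with the slide as a block (0.0424), and without WT(HFD) WAT replicate 2 (0.0407), WT(HFD) WAT replicate 5 (0.0493) or CD44KO(HFD) WAT replicate 4 (0.0439). The value of Cyp1b1, 1.58 ± 0.45 (adjusted p = 0.0882), rested on CD44KO(HFD) livers of which 1 in 5 measured the gene, and is not read as a size. It passed with the slide as a block (0.0439) and without CD44KO(HFD) liver replicate 3 (0.0152). For Cyp2j9, which rose in liver and whose difference in WAT was above 0 but did not pass, the WAT difference minus the liver difference was -0.59 ± 0.27 (adjusted p = 0.294).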

How the data were processed

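RNA of 20 liver and WAT samples was read on 20 single-colour (Cy3) Agilent arrays of 45018 spots. The authors deposited Feature Extraction intensity values (version 9.5.3.1 in the file headers, build mm7), and the processed signal used here is the mean signal after detrending with surrogates for the dimmest spots; the deposited table of the series held the same intensity values. No normalization or test for the arrays was given in the sources used here. Outlier spots and controls were left out, the log2 values of the spots of a probe were averaged, and arrays were scaled by subtracting their own 75th percentile.

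Probes well above background (more than 13 SD in the file headers) in 3 or more of the arrays of either genotype were tested with limma 3.58.1 in R 4.3.3, each tissue in its own fit, with Benjamini-Hochberg adjustment over all probes tested and a threshold of 0.05. The interaction of genotype and tissue was fitted over all 20 arrays. The fits were tested on simulated data, and single genes also by an exact permutation test.

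The members and gene lists were chosen with earlier results of these data known. Named in liver were members past the threshold without overlap and the brightest of each subfamily, and in WAT the 8 with the largest change and the 5 brightest. The labels give replicates as separate samples without saying that each is another mouse, so p-values measure the spread between these samples, which may be technical, and precision is limited by how many arrays there are. Alternatives were normexp (offset 50) on mean and local background signals, quantile and median scaling, no filter, a filter of 5 of 5 arrays, all 20 arrays in one fit, slide and replicate blocks, other choices of probe, the series table, and leaving out each array. Promoters and current symbols came from RefSeq tables of GRCm38.p6.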

Additional observations from a re-analysis of the deposited data

How the results depend on the processing

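In liver, where 12 members and 3358 probes passed, 1 member and 641 probes passed with the normexp correction, 1 and 1027 with no filter, and 2 and 723 with all 20 arrays in one fit. Leaving out 1 array gave 1 to 16 members and 858 to 4647 probes. Quantile normalization gave 12 members higher and 3 lower, in place of 11 and 1, and over all probes the normexp correction gave 216 higher and 425 lower, in place of 1938 and 1420. In WAT, 0 members passed except for 4 with all 20 arrays in one fit, and leaving out 1 array gave 0 to 0. Over all WAT probes, 11 passed, against 35 with normexp, 19 with median scaling, 3 with no filter, 1819 with all 20 arrays in one fit, 4 with the slide as a block and 3 to 19 without 1 array. In the interaction 1 member passed with normexp and 2 with the slide as a block, and 0 to 1 without 1 array; the 334 probes became 20 with median scaling, 77 with no filter, 621 with the slide as a block and 84 to 582 without 1 array. The cause of these moves was not tested. No named gene that passed turned its direction.

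Mice of the 2 genotypes shared replicate numbers but not animals. Same-numbered arrays had correlated deviations of -0.04 to 0.42 in liver and -0.21 to 0.09 in WAT, so the numbers were not taken to pair them. With a replicate block, 4 liver members and 1329 liver probes, 3 WAT probes and 86 interaction probes passed.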
